A study of Mus musculus with 8 samples.

Results

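The S phase and DNA replication genes are 29 genes whose products bring a cell from G1 into S phase and copy its DNA. They were chosen by name for what they do, with earlier results of these data known. Of the 29, 28 were measured. Chaf1a, a subunit of the factor that places histones on new DNA, had no probe set that carried its symbol alone and was not analysed here. The 28 genes had 67 probe sets, and each gene is represented by its brightest one, of 18193 named genes and 45037 probe sets in all. A probe set is a group of short probes that together measure part of a transcript, and its value is an intensity after robust multi-array averaging (RMA), in linear units.

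The 8 arrays came from 2 mouse T cell leukemia lines, each transduced with a retrovirus and sorted for GFP 72 h later. The 4 groups of 2 arrays were the E2a-/-Lef1F/F line (here Lef1F/F) with MigR1-Cre, the same line with MigR1, the E2a-/- line with MigR1-Cre, and that line with MigR1. Both lines lack E2a, were of strain FVB/NJ and were grown from the thymus of moribund mice, and MigR1 carries GFP without Cre. In the Lef1F/F line loxP sites flank the part of Lef1 that encodes its DNA binding domain, so Cre deletes that part, while the E2a-/- line shows what Cre does without such sites. With 1 line of each genotype, what belongs to the genotype and what to the line cannot be told apart, and animal ages are not given in the sources used here. Separate cultures for the 2 arrays of a group are not stated in the labels. The p-values therefore reflect the spread of these arrays alone, which may be technical. In addition, 1 vector field of the labels gives the opposite vector for Lef1F/F MigR1 arrays and for E2a-/- arrays with Cre, and groups follow the titles.

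Before S phase, the origin licensing factors Cdc6 and Cdt1 load the ring-shaped Mcm2 to Mcm7 helicase onto DNA. The cyclins E1 and E2, encoded by Ccne1 and Ccne2, drive the kinase Cdk2, which with other kinases lets Cdc45, the GINS complex and Mcm10 turn the loaded helicase on. Many of these genes are transcribed by E2F factors, E2f1 among them, once the retinoblastoma proteins release them. The thymus and T cell leukemias hold many dividing cells, in which these genes are well expressed.

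Lef1 was the check of the vector labels in the Lef1F/F line. In the E2a-/- line no Lef1 allele is floxed, so Lef1 cannot tell MigR1-Cre from MigR1 there. The vectors of that line, and the comparisons that use them, rest on the titles. Its probe set 1454734_at read 1903 and 1678 in Lef1F/F MigR1-Cre arrays and 6918 and 6126 in Lef1F/F MigR1 arrays. In the E2a-/- line it read 3008 and 3416 in MigR1-Cre arrays and 3288 and 3337 in MigR1 arrays. The transcript was thus lowest where Cre met floxed alleles, with a log2 difference in the Lef1F/F line of -1.87 ± 0.09 (SE, limma adjusted p = 0.000703), against -0.05 ± 0.09 (1.00) in the E2a-/- line. The median intensity over all probe sets lay between 88.9 and 91.0 in the 8 arrays. Over 7 T cell markers the summed intensity was 35701 to 41205 in Lef1F/F MigR1-Cre and 34030 to 39625 in Lef1F/F MigR1 arrays, and 30146 to 31026 in E2a-/- MigR1-Cre and 30057 to 30408 in E2a-/- MigR1 arrays. Summed intensities of 4 B cell, 5 myeloid, 4 erythroid and 4 natural killer cell markers were far lower and alike in all groups, for example 288 to 301 for B cell markers in Lef1F/F MigR1-Cre arrays. Of 5 stromal markers, Col1a2 read 252 to 311 in Lef1F/F arrays and 4131 to 4377 in E2a-/- arrays. Pdgfrb read 155 and 192 in Lef1F/F MigR1-Cre, 216 and 242 in Lef1F/F MigR1, 141 and 164 in E2a-/- MigR1-Cre and 136 and 141 in E2a-/- MigR1 arrays. Between the lines with MigR1, Col1a2 was lower in the Lef1F/F line at -3.78 and Pdgfrb higher at 0.72 (limma adjusted p = 0.00568), and both passed. Col1a2 passed with MigR1-Cre too, and their part in the line differences was not tested. The remaining stromal markers were dim in all 8 arrays and did not pass between the lines. Col1a1 read 60 to 70, Col3a1 45 to 51 and Dcn 76 to 94. No marker was listed at 0, because RMA gives a value above 0 to every probe set.

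The promoters of 4 genes are shown here. They were taken from the 9 members whose promoter held letters that E2F factors are known to bind. In their brightest probe sets Mcm6, Rfc3 and Cdc6 were higher, and Mcm3 lower, in the second array of both Lef1F/F groups. Such a shared direction, described further on, was found for 25 of the 28 genes and does not set these 4 apart. The windows, from RefSeq (GRCm38.p6), run from 250 bases before to 50 bases after the gene start, read 5′ to 3′ along transcription, and capitals mark each match to TTTCCCGC, TTTCGCGC, TTTGCCGC or TTTGGCGC on either strand. They lie at chr1:128359656-128359955 on the minus strand (Mcm6), chr5:151651159-151651458 on the minus strand (Rfc3), chr11:98907901-98908200 on the plus strand (Cdc6) and chr1:20820263-20820562 on the minus strand (Mcm3).
Mcm6: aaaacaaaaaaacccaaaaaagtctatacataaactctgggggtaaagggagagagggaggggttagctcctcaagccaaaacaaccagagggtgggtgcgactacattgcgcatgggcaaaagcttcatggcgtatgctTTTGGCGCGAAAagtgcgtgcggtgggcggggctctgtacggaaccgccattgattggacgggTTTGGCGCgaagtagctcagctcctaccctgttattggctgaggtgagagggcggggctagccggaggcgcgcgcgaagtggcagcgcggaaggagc
Rfc3: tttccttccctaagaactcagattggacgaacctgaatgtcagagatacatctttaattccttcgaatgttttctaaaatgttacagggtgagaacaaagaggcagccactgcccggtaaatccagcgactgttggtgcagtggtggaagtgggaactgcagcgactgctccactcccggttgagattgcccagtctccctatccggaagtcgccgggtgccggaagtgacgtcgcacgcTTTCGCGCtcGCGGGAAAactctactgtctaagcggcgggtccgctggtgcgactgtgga
Cdc6: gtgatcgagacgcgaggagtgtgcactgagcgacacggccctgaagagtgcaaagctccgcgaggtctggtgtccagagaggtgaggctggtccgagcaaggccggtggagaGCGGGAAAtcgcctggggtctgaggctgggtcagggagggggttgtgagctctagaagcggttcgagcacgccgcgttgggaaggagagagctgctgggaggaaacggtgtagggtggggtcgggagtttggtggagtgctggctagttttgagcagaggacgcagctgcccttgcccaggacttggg
Mcm3: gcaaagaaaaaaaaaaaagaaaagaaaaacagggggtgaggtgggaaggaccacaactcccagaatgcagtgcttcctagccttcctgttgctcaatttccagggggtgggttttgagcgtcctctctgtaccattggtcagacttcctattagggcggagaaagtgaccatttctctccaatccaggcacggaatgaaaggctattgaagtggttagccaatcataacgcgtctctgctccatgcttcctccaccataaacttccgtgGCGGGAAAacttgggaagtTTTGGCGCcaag
Counted from 1 at the 5′ end, the Mcm6 matches span bases 141 to 148, 145 to 152 and 204 to 211, so the first and second overlap. The Rfc3 matches span bases 241 to 248 and 251 to 258, the Cdc6 match bases 113 to 120, and the Mcm3 matches bases 270 to 277 and 289 to 296. Of the 29 genes, 23 had a window in the table, with 26 windows. A match was present in 9 of these 23 genes (39.1%) and in 9 of the 26 windows (34.6%), against 704 of 27025 genes (2.60%) and 744 of 32851 windows (2.26%) in the whole table. The other 5 genes with a match were Mcm5, Mcm7, Cdt1, Pola1 and Uhrf1. Mcm4, Ccne2, Gins1, Gins2, Pole and Rfc2 had no window. A match is a description of the letters and not a measured binding site, and a window without one shows only that these spellings are not in those bases. The windows follow the starts in the table, which may not be those used in these cells. The E2f1 window, counted among those without a match, may follow a downstream start and miss its promoter.

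The first question was whether Cre, and with it loss of Lef1, changed the expression of replication genes in the Lef1F/F line. None of the 28 genes passed an adjusted p of 0.05 (limma, Benjamini-Hochberg over all probe sets), where 0.286% of all named genes did in either direction. Their median log2 difference, MigR1-Cre minus MigR1, was -0.02, against 0.00 over all named genes, and 19 of 28 were below 0. Values ran from -0.32 for Ccne2 to 0.07 for Pola1. At an unadjusted p of 0.05, 1 of the 28 genes passed, Ccne1, against 6.28% of all named genes in either direction. The array measures RNA of a cell population, so fewer cells in S phase and less RNA per cell cannot be told apart.

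The precision of this comparison bounded the difference for most genes. In the Lef1F/F line the 95% confidence interval, unadjusted for the number of genes, lay within a 1.5-fold difference in either direction for 27 of 28 genes, Ccne2 being the exception, and within 1.2-fold for 19. The median half-width of the interval was 0.18 on the log2 scale, from 0.12 for Rrm1 to 0.43 for Rfc3. For most members this comparison therefore had room for modest differences only, and a p above the threshold does not show that values were equal.

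**Figure D1:**
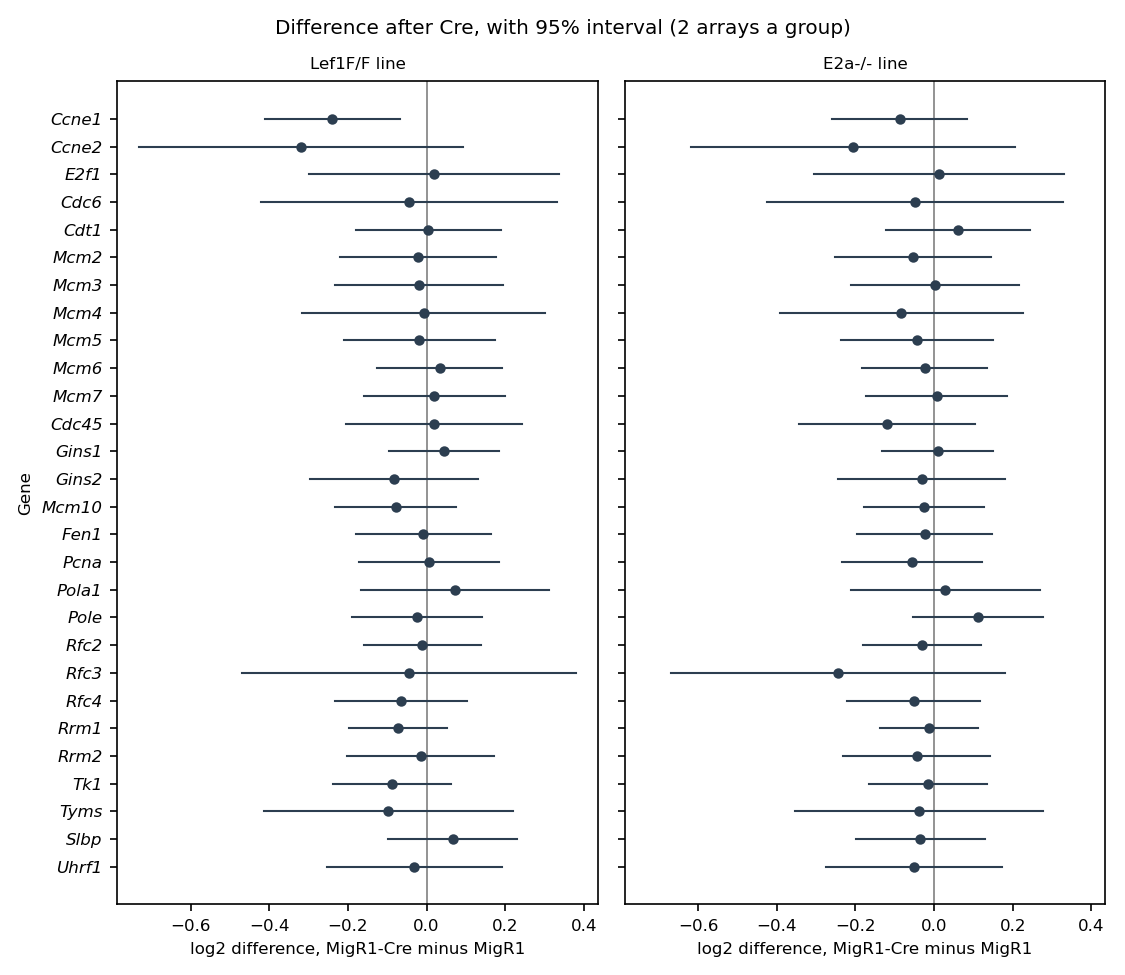
Log2 difference of intensity, MigR1-Cre minus MigR1, for the 28 genes in the Lef1F/F line (left) and the E2a-/- line (right), ordered by role; points are fitted differences and bars are 95% intervals from limma with 2 arrays a group. Most points lie close to 0 in both lines, Ccne2 and Ccne1 are the lowest in the Lef1F/F line at -0.32 and -0.24, and no gene passed the adjusted threshold.

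Among the G1/S control genes, Ccne1 read 468 and 490 in Lef1F/F MigR1-Cre arrays and 575 and 556 in Lef1F/F MigR1 arrays. The Cre arrays were both below the MigR1 arrays. The log2 difference was -0.24 ± 0.07 (SE, 95% interval -0.41 to -0.07), with a limma adjusted p of 0.753. A second Ccne1 probe set, 1416492_at, read 307 and 313 against 458 and 368 in the same groups, a difference of -0.41 ± 0.13 with a limma adjusted p of 0.821. Ccne2 read 1013 and 1393 in Lef1F/F MigR1-Cre arrays and 1355 and 1621 in Lef1F/F MigR1 arrays. These groups overlapped, and its difference of -0.32 ± 0.18 had an interval of -0.73 to 0.09 and a limma adjusted p of 1.00. E2f1 differed by 0.02 between the vectors in this line.

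In the E2a-/- line, Ccne1 read 614 and 551 in MigR1-Cre arrays and 642 and 595 in MigR1 arrays, which overlapped, with a difference of -0.09 ± 0.07. Ccne2 read 1323 and 985 in MigR1-Cre arrays and 1353 and 1283 in MigR1 arrays, which overlapped as well, with a difference of -0.21. Both cyclin E genes thus had values below 0 in both lines. The Cre effect of the Lef1F/F line minus that of the E2a-/- line was -0.15 ± 0.11 for Ccne1 and -0.11 for Ccne2, with limma adjusted p of 1.00 for each.

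**Figure D2:**
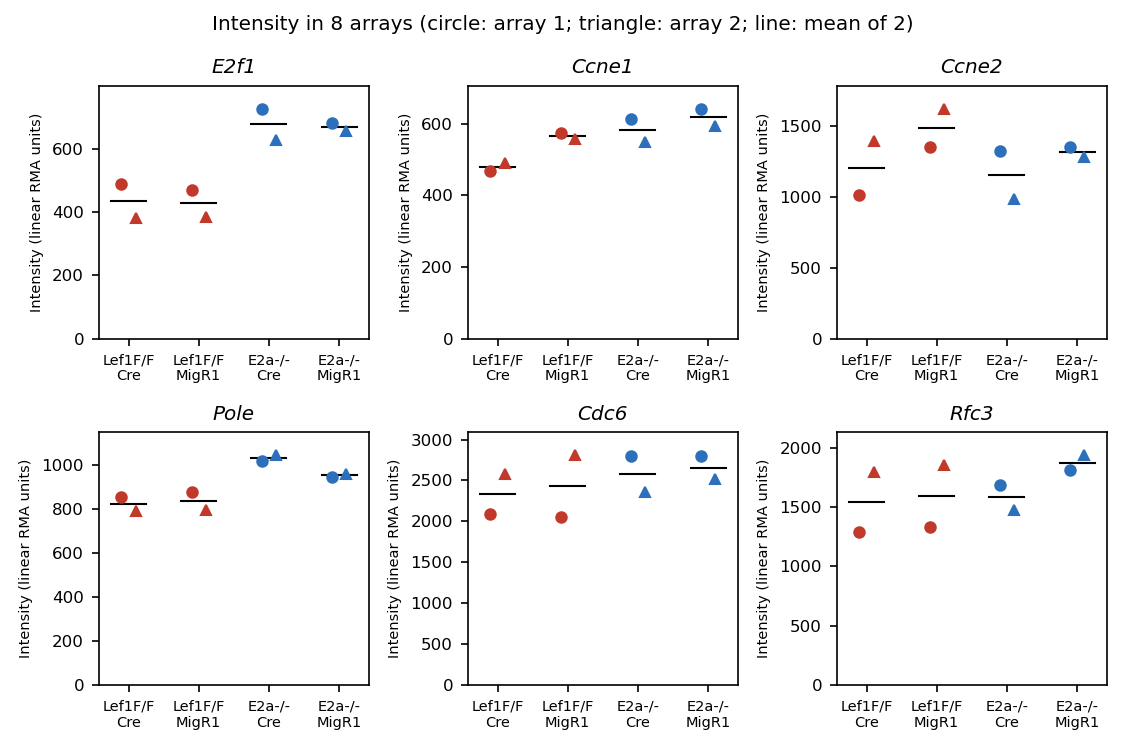
Intensity in linear RMA units, from 0, of 6 genes in each of the 8 arrays; circles are array 1, triangles array 2 and horizontal lines the mean of the 2 arrays. E2f1 and Pole are lower in all Lef1F/F arrays than in any E2a-/- array, Ccne1 is lowest in Lef1F/F MigR1-Cre, and Cdc6 and Rfc3 are high in array 2 of both Lef1F/F groups.

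The genes of nucleotide supply, which make the precursors of DNA, all had values below 0 after Cre in both lines, with medians over the 4 genes of -0.08 in the Lef1F/F line and -0.03 in the E2a-/- line and none past the test. Tk1, thymidine kinase 1, read 1815 and 1734 in Lef1F/F MigR1-Cre arrays and 1974 and 1802 in Lef1F/F MigR1 arrays. The groups overlapped and the difference was -0.09 ± 0.07. Rrm1, the large subunit of ribonucleotide reductase, read 5194 and 5265 in Lef1F/F MigR1-Cre arrays and 5458 and 5534 in Lef1F/F MigR1 arrays. The Cre arrays were the lower pair by a small margin, with a difference of -0.07 ± 0.05. In the E2a-/- line Tk1 differed by -0.02 and Rrm1 by -0.01. Tyms, thymidylate synthase, and Rrm2, the small reductase subunit, differed by -0.10 and -0.02 in the Lef1F/F line.

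The licensing genes were among the members closest to 0. In the Lef1F/F line the differences were -0.02 for Mcm2, -0.02 for Mcm3, -0.01 for Mcm4, -0.02 for Mcm5, 0.03 for Mcm6 and 0.02 for Mcm7, and their loaders Cdc6 and Cdt1 had -0.04 and 0.00. The median over these 8 genes was -0.01 in the Lef1F/F line and -0.03 in the E2a-/- line. Mcm7, for example, read 11640 and 12914 in Lef1F/F MigR1-Cre arrays and 11473 and 12752 in Lef1F/F MigR1 arrays, a pair in which array 2 was the higher under each vector. The helicase activation genes had a median of -0.03 in each line, with Mcm10 at -0.08 and Gins1 at 0.04 in the Lef1F/F line. In the synthesis group Pcna, the clamp that holds polymerases on DNA, differed by 0.01 and the flap endonuclease Fen1 by -0.01. Slbp, which binds histone mRNA, and Uhrf1, which directs methylation of new DNA, differed by 0.07 and -0.03.

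In the E2a-/- line, where no Lef1 allele is floxed, none of the 28 genes passed, as none of all named genes did (0%). The median was -0.03, 21 of 28 were below 0 and values ran from -0.24 for Rfc3 to 0.11 for Pole, with none passing an unadjusted p of 0.05, where 1.7% of all named genes did. The intervals lay within 1.5-fold for 26 genes, all but Ccne2 and Rfc3, and within 1.2-fold for 18. Pole, the catalytic subunit of DNA polymerase epsilon, had the smallest p. It read 1015 and 1042 in E2a-/- MigR1-Cre arrays and 946 and 957 in E2a-/- MigR1 arrays. The Cre arrays were the higher pair, with a difference of 0.11 ± 0.07 and an unadjusted limma p of 0.154. Rfc3, a subunit of the clamp loader, read 1691 and 1479 in E2a-/- MigR1-Cre arrays and 1810 and 1936 in E2a-/- MigR1 arrays, with a difference of -0.24 ± 0.18. Cdc45 read 836 and 766 in E2a-/- MigR1-Cre arrays and 837 and 904 in E2a-/- MigR1 arrays, with a difference of -0.12 ± 0.10. Both were lower in the Cre arrays without overlap, though the nearest Cdc45 arrays were almost equal.

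The Cre effect of the Lef1F/F line minus that of the E2a-/- line was then tested directly. None of the 28 genes passed, against 0.033% of all named genes in either direction. The median was 0.01, and values ran from -0.15 for Ccne1 to 0.20 for Rfc3. After Ccne1, the smallest p belonged to Pole with -0.14 ± 0.10, Cdc45 with 0.14 ± 0.14 and Slbp with 0.10 ± 0.10. Slbp read 5718 and 6340 in Lef1F/F MigR1-Cre arrays and 5537 and 5972 in Lef1F/F MigR1 arrays, and 5828 and 5708 in E2a-/- MigR1-Cre arrays and 5948 and 5868 in E2a-/- MigR1 arrays. The vectors overlapped in the Lef1F/F line and not in the E2a-/- line, where the Cre arrays were the lower pair. Intervals of this difference were wider, with a median half-width of 0.26, and lay within 1.2-fold for 5 genes.

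The Cre and MigR1 arrays of the Lef1F/F line did not overlap for 3 of the 28 genes, Mcm10, Ccne1 and Rrm1, all lower after Cre, where 16.1% of all named genes were lower and 16.4% higher without overlap. In the E2a-/- line 9 genes were lower and 2, Cdt1 and Pole, were higher without overlap, against 15.6% and 15.8% of all named genes. Cdkn1a, which encodes the Cdk2 inhibitor p21 and is not one of the 29 genes, gives the contrast. Its probe set 1421679_a_at read 756 and 761 in Lef1F/F MigR1-Cre arrays and 410 and 427 in Lef1F/F MigR1 arrays. It read 850 and 844 in E2a-/- MigR1-Cre arrays and 799 and 839 in E2a-/- MigR1 arrays. This probe set was lowest in Lef1F/F MigR1 arrays, with a difference after Cre in this line of 0.86 ± 0.06 (limma adjusted p = 0.00282). A second Cdkn1a probe set, 1424638_at, read 1152 and 958 in Lef1F/F MigR1-Cre arrays and 570 and 749 in Lef1F/F MigR1 arrays, and its difference of 0.68 ± 0.14 did not pass (limma adjusted p = 0.237).

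**Figure D3:**
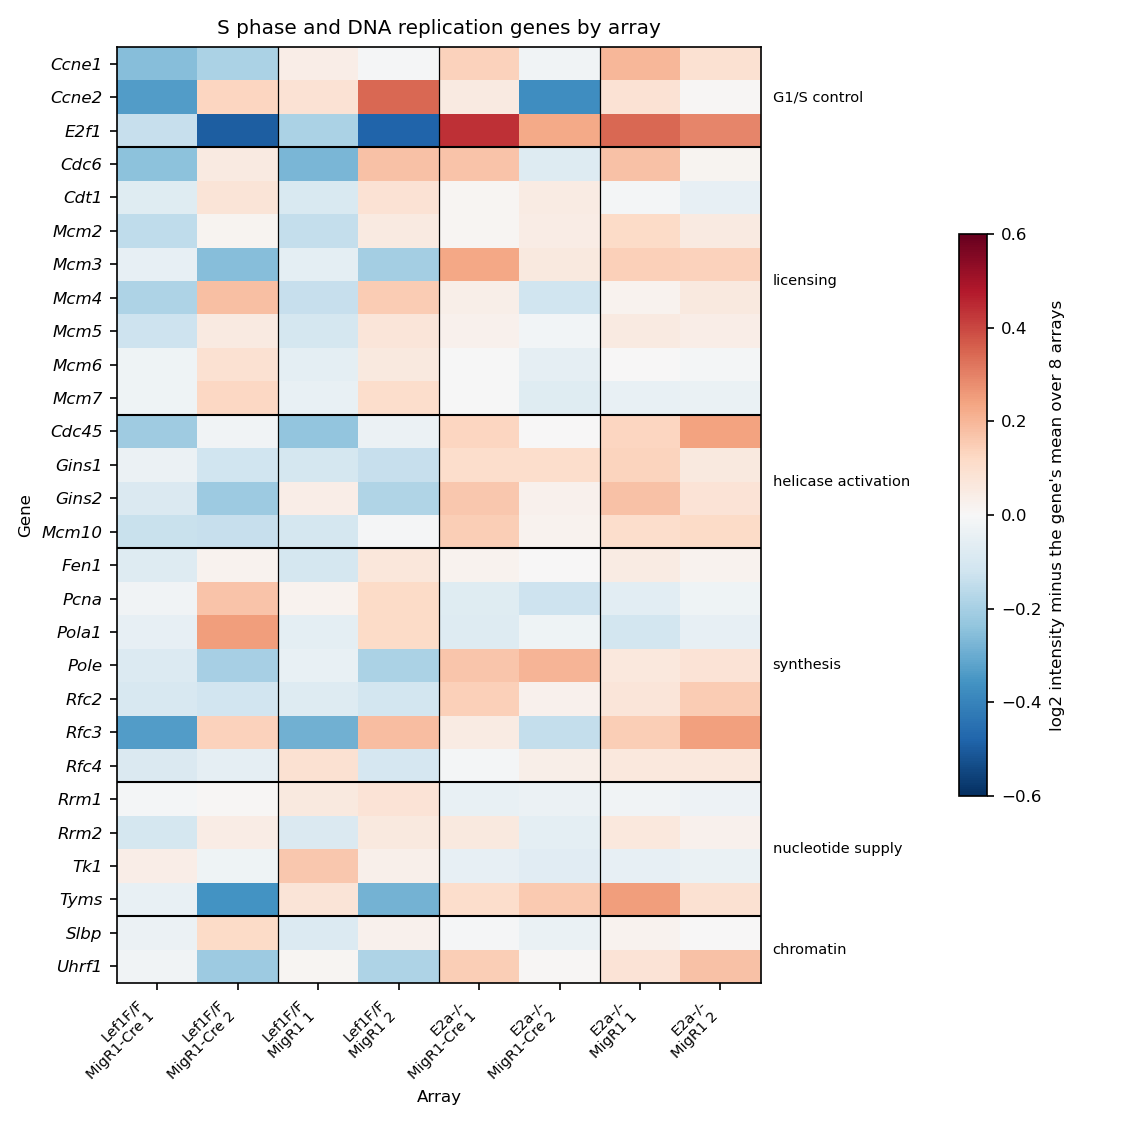
Log2 intensity of each of the 28 genes minus that gene's mean over the 8 arrays, by array (columns) and role (rows); red is above and blue below the gene's mean. E2f1 is blue in all 4 Lef1F/F arrays and red in all 4 E2a-/- arrays, and in the Lef1F/F line array 1 resembles array 1, and array 2 array 2, across the vectors.

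The lines themselves differed more. In MigR1-Cre arrays 3 of 28 genes, E2f1, Ccne1 and Pole, were lower in the Lef1F/F line and none was higher at an adjusted p of 0.05, against 7.46% of all named genes lower and 8.6% higher. In MigR1 arrays 1 gene was lower, E2f1, and none was higher, against 5.88% lower and 8.71% higher of all named genes. These counts are close to the background in the lower direction. The median over the 28 genes, Lef1F/F minus E2a-/-, was -0.07 in MigR1-Cre arrays and -0.10 in MigR1 arrays, against 0.00 over all named genes in each, and 19 and 20 of 28 were below 0. At an unadjusted p of 0.05, 9 genes in MigR1-Cre arrays and 7 in MigR1 arrays passed, all of them lower in the Lef1F/F line. Of all named genes, 14.1% were lower and 13.9% higher at this threshold in MigR1-Cre arrays, and 12.4% lower and 13.9% higher in MigR1 arrays.

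E2f1 had the greatest fitted line difference of the 28 genes. It read 488 and 380 in Lef1F/F MigR1-Cre arrays and 726 and 628 in E2a-/- MigR1-Cre arrays. With MigR1 it read 470 and 384 in Lef1F/F arrays and 681 and 657 in E2a-/- arrays. All 4 Lef1F/F arrays were below all 4 E2a-/- arrays. The difference was -0.65 ± 0.14 under each vector, with limma adjusted p of 0.0194 in MigR1-Cre and 0.0199 in MigR1 arrays. A second probe set, 1431875_a_at, gave -0.64 and -0.67 with limma adjusted p of 0.0276 and 0.0250, while the dimmest one gave -0.12 and -0.08 and did not pass. The call was lost without Lef1F/F MigR1-Cre array 2, with a limma adjusted p of 0.0884, and without Lef1F/F MigR1 array 2, with 0.107. It was also lost without E2a-/- MigR1-Cre array 1 or 2, with 0.141 and 0.0576, and without E2a-/- MigR1 array 1 or 2, with 0.144 and 0.113, each in the comparison that used that array.

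Pole read 854 and 789 in Lef1F/F MigR1-Cre arrays and 1015 and 1042 in E2a-/- MigR1-Cre arrays. With MigR1 it read 878 and 794 in Lef1F/F arrays and 946 and 957 in E2a-/- arrays. The lines did not overlap under either vector. The difference was -0.33 ± 0.07 in MigR1-Cre arrays, with a limma adjusted p of 0.0220, and -0.19 ± 0.07 in MigR1 arrays, with 0.162. Ccne1, with the intensities given above, had a line difference of -0.28 ± 0.07 in MigR1-Cre arrays, with a limma adjusted p of 0.0480, and -0.13 ± 0.07 in MigR1 arrays, with 0.396. Its second probe set gave -0.47 with 0.0604 in MigR1-Cre arrays and did not pass. The Ccne1 call was lost whichever of the 8 arrays was left out (0.0556 to 0.251), and the Pole call was lost without Lef1F/F MigR1-Cre array 2 (0.126) and without any 1 of the 4 E2a-/- arrays (0.0513 to 0.136). The line difference with Cre minus that with MigR1 is the same quantity as the difference in Cre effect given above, -0.15 for Ccne1 and -0.14 for Pole, and it did not pass for either gene.

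**Figure D4:**
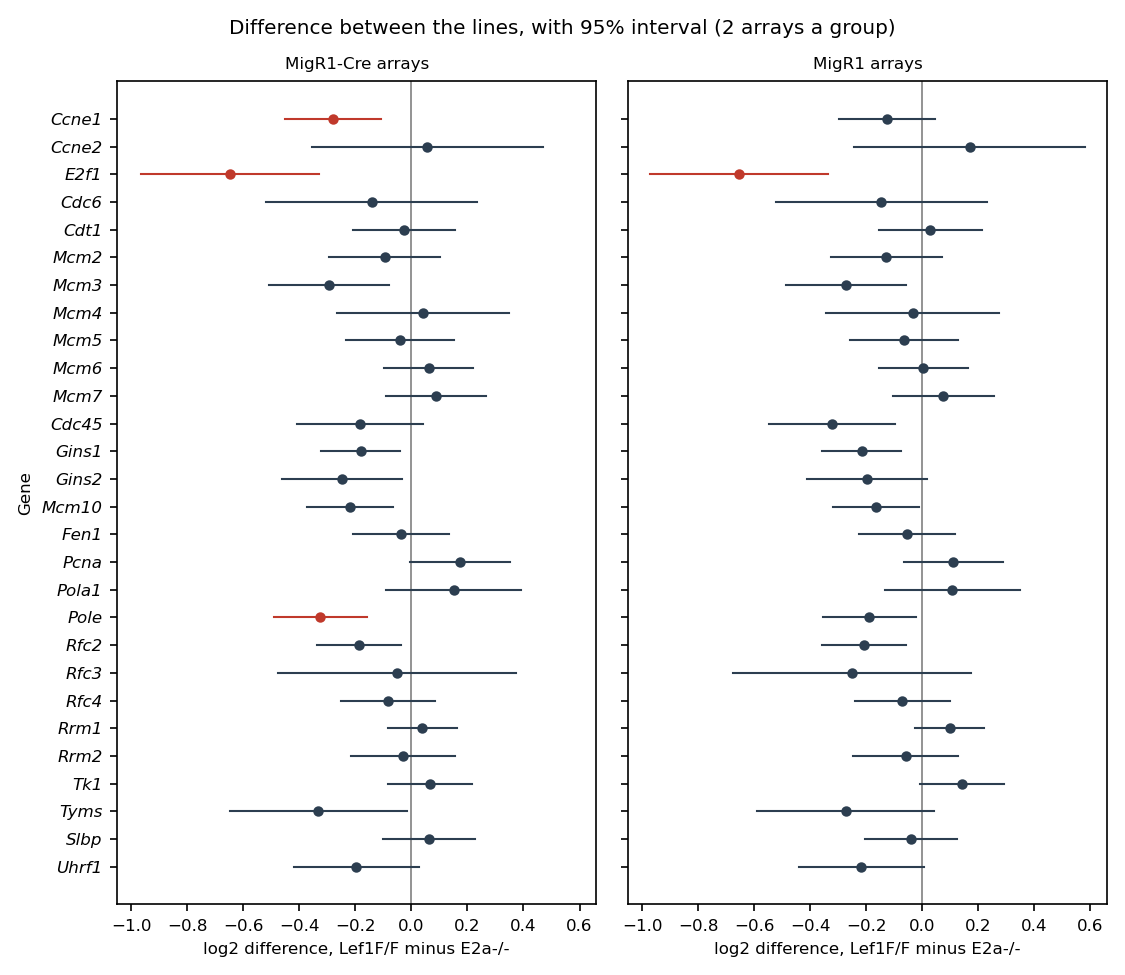
Log2 difference of intensity, Lef1F/F minus E2a-/-, for the 28 genes in MigR1-Cre arrays (left) and MigR1 arrays (right); points are fitted differences, bars 95% intervals from limma with 2 arrays a group, and red marks an adjusted p under 0.05. E2f1 lies at -0.65 in both panels, and Ccne1 and Pole are red in the MigR1-Cre panel only.

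Below the threshold, the helicase activation genes, which turn the loaded helicase on, lay below 0 for all 4 genes in both comparisons of the lines, with medians of -0.20 in MigR1-Cre and -0.21 in MigR1 arrays. Cdc45 read 660 and 752 in Lef1F/F MigR1-Cre arrays and 836 and 766 in E2a-/- MigR1-Cre arrays, with a difference of -0.18 ± 0.10. Gins1 read 2105 and 1984 in Lef1F/F MigR1-Cre arrays and 2316 and 2320 in E2a-/- MigR1-Cre arrays, with a difference of -0.18 ± 0.06. The lines did not overlap for either gene, and limma adjusted p were 0.319 and 0.106. Mcm10 and Gins2 had -0.22 and -0.25 in MigR1-Cre arrays and -0.17 and -0.20 in MigR1 arrays.

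In their brightest probe sets the licensing genes were closer together, with medians of -0.03 in MigR1-Cre and -0.05 in MigR1 arrays. Among these probe sets only that of Mcm3, at -0.30 and -0.27, had a value beyond 0.2 in size. Other probe sets of Mcm2 and Mcm5 gave larger differences, described below. Pcna was a gene with values above 0. It read 14484 and 16515 in Lef1F/F MigR1-Cre arrays and 13965 and 13473 in E2a-/- MigR1-Cre arrays, and with MigR1 it read 14883 and 15926 in Lef1F/F arrays and 14077 and 14439 in E2a-/- arrays. The lines did not overlap, and its differences of 0.17 ± 0.08 and 0.11 ± 0.08 did not pass.

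Under both vectors the lines were apart in the same direction for 14 of the 28 genes. Mcm3, Mcm10, Ccne1, Cdc45, E2f1, Tyms, Gins1, Gins2, Pole, Uhrf1 and Rfc2 (11 genes) were lower in the Lef1F/F line, against 17.1% of all named genes, and Pcna, Rrm1 and Tk1 (3 genes) were higher, against 16.7%. In MigR1-Cre arrays alone 12 were lower and 3 higher without overlap, against 27% and 26.7% of all named genes, and in MigR1 arrays 12 were lower and 4 higher, against 27.7% and 26.1%. The lower share of the 28 genes was above the background and the higher share below it, which is a description of the list and not a test.

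Which probe set stood for a gene mattered for the lines. Over all 67 probe sets of the 28 genes, 7 were lower and 1 higher in the Lef1F/F line in MigR1-Cre arrays, against 6.02% and 5.97% of all probe sets. In MigR1 arrays 6 were lower and none higher, against 4.67% and 6.06%. Probe set 1448777_at of Mcm2 read 3066 and 2359 in Lef1F/F MigR1-Cre arrays and 4286 and 3897 in E2a-/- MigR1-Cre arrays, a difference of -0.60 with a limma adjusted p of 0.0414, while the brightest probe set gave -0.10. Probe set 1430058_at of Slbp gave -0.67 with 0.000875 in MigR1-Cre and -0.46 with 0.00595 in MigR1 arrays, where the brightest gave 0.06 and -0.04. For Mcm5 the values were -0.54 and -0.55 in probe set 1415945_at, which did not pass, against -0.04 and -0.06 in the brightest. For these 3 genes the probe sets disagree on the size of the line difference, and the brightest gives the smaller one. For Slbp in MigR1-Cre arrays they disagree on its sign as well. The Slbp probe set 1430058_at was also dim, at 238 to 409 over all arrays, against 5537 to 6340 for the brightest Slbp probe set. The single higher probe set was 1442192_at of Tyms, at 0.35 with a limma adjusted p of 0.0281, where the brightest gave -0.33.

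In the Cre comparisons 0 of the 67 probe sets passed in either line. Of all 45037 probe sets, 18 were higher and 57 lower after Cre in the Lef1F/F line, and 0 passed in the E2a-/- line. With calls this rare, a count of 0 among 67 says little about the members or about the choice of probe set. In the Lef1F/F line 2 passed an unadjusted p of 0.05 (both of Ccne1, lower), where 4.66% of all probe sets did, and in the E2a-/- line 1, a dim probe set of Rrm1 at -0.23, where 1.86% did.

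The 2 arrays of a Lef1F/F group differed from each other in a way that recurred under both vectors. Array 2 was on the same side of array 1 in MigR1-Cre and in MigR1 for 25 of the 28 genes (89.3%), against 63.1% of all named genes. It was the higher for 16 genes and the lower for 9. In the E2a-/- line this held for 13 of 28 (46.4%), against 48.2%. Array numbers follow the order of the records and do not pair the arrays by any label.

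Cdc6 shows it plainly, with 2095 and 2581 in Lef1F/F MigR1-Cre arrays and 2050 and 2806 in Lef1F/F MigR1 arrays. Rfc3 read 1293 and 1798 in Lef1F/F MigR1-Cre arrays and 1335 and 1853 in Lef1F/F MigR1 arrays. Mcm4 read 6188 and 7950 in Lef1F/F MigR1-Cre arrays and 6374 and 7796 in Lef1F/F MigR1 arrays. In the brightest probe sets of these 3 genes the arrays numbered alike were close across the vectors. The 2 arrays of a group were far apart, by 0.30 to 0.48 on the log2 scale with MigR1-Cre. E2f1, Tyms, Uhrf1 and Mcm3 went the other way, lower in array 2 by 0.36, 0.31, 0.20 and 0.20 with MigR1-Cre. The median size of the difference between the arrays of a group over the 28 genes was 0.15 in Lef1F/F MigR1-Cre and 0.17 in Lef1F/F MigR1, and 0.06 in E2a-/- MigR1-Cre and 0.04 in E2a-/- MigR1. Over all named genes it was 0.09, 0.09, 0.07 and 0.06 in that order of groups.

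**Figure D5:**
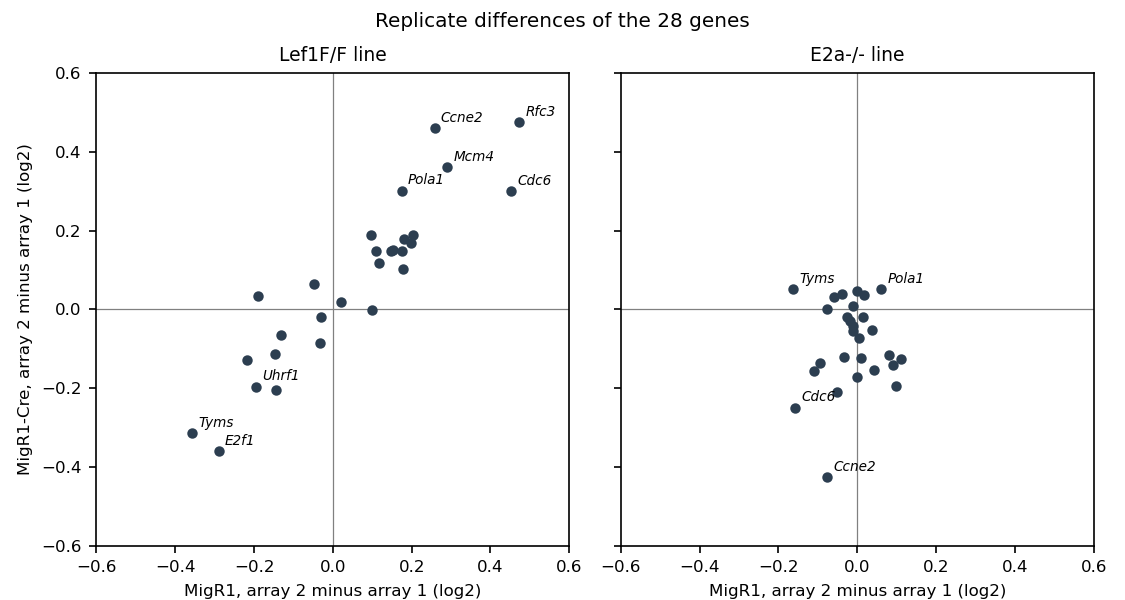
Array 2 minus array 1 of log2 intensity for each of the 28 genes, MigR1 on the horizontal and MigR1-Cre on the vertical axis, in the Lef1F/F line (left) and the E2a-/- line (right). In the Lef1F/F line 16 genes lie upper right and 9 lower left, while in the E2a-/- line 13 of 28 share a sign, and Ccne2 lies lowest with MigR1-Cre.

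Probe sets of one gene did not always share this direction. Of 23 genes with at least 2 probe sets, 15 had a direction that was the same under both vectors in the brightest and in the next brightest probe set. These directions were opposite in 7, Mcm2, Mcm5, Mcm7, Cdc45, Tyms, Gins1 and Rfc2 (46.7%), against 36.0% over all named genes. Mcm5 was higher in array 2 in its brightest probe set, with 6881 and 7789 in Lef1F/F MigR1-Cre arrays and 6967 and 7890 in Lef1F/F MigR1 arrays. Its probe set 1415945_at was lower in array 2, with 3532 and 2660 in Lef1F/F MigR1-Cre arrays and 3962 and 2709 in Lef1F/F MigR1 arrays. Rrm1 was nearly equal between arrays in its brightest probe set. Its probe set 1448127_at read 1424 and 2996 in Lef1F/F MigR1-Cre arrays and 1482 and 2637 in Lef1F/F MigR1 arrays. The next brightest Rfc3 probe set, 1423700_at, read 1341 and 1408 in Lef1F/F MigR1-Cre arrays and 1439 and 1373 in Lef1F/F MigR1 arrays. It thus lacked the shared direction that the brightest Rfc3 probe set had. Some of the 7 opposite directions rest on dim probe sets or small values. The next brightest probe set read 90 to 104 for Gins1 and 126 to 177 for Tyms, and that of Mcm7 differed by only -0.01 and -0.08. For Mcm2 and Mcm5 both probe sets were bright, and there the direction of the replicate difference depended on the probe set. The share of 46.7% comes from 15 genes and is not read as a difference from 36.0%. The cause of the replicate difference was not tested. Of the 9 genes with a promoter match shown or named above, 7 were higher and 2 lower in array 2 under both vectors. Of the 13 measured genes whose window held no match, 7 were higher and 3 lower, and of the 6 without a window, 2 were higher and 4 lower. Of all 18193 named genes, 5882 were higher and 5605 lower. A link between a match and this direction was not tested.

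With the array number as a block in the Lef1F/F line, a pairing taken from these values and not from the labels, the count in the Lef1F/F Cre comparison stayed 0 of 28 (1.19% of all named genes in either direction). The lines then differed, always lower in the Lef1F/F line, for 7 genes in MigR1-Cre arrays (13.4% of all named genes) and 9 in MigR1 arrays (11.4%). The stromal marker Pdgfrb was then lower after Cre in the Lef1F/F line, at -0.40 (limma adjusted p = 0.0379, against 0.649 without the block). For the lines this block takes the spread between the Lef1F/F pairs out of the error, so its p-values there may be too small. Because the pairing came from these same values, the calls that the block adds, Pdgfrb among them, are not read as results.

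Of 50 other replication genes, 49 were measured. None passed in either Cre comparison, and none passed at an unadjusted p of 0.05. Between the lines 5 were lower and 4 higher in the Lef1F/F line in MigR1-Cre arrays, and 4 lower and 3 higher in MigR1 arrays, with medians of -0.06 and -0.05. The background of all named genes was 7.46% lower and 8.6% higher in MigR1-Cre arrays and 5.88% lower and 8.71% higher in MigR1 arrays, so the counts lie close to it, and 40 and 42 of the 49 genes did not pass. Gins4, a GINS subunit, read 766 and 771 in Lef1F/F MigR1-Cre arrays and 1041 and 1023 in E2a-/- MigR1-Cre arrays, with a difference of -0.42 ± 0.06 and a limma adjusted p of 0.00218. Orc6, of the origin recognition complex, read 1026 and 1054 in Lef1F/F MigR1-Cre arrays and 1420 and 1347 in E2a-/- MigR1-Cre arrays, with -0.41 ± 0.06 and 0.00297. The groups were far apart in both genes. Both were lower with MigR1 too, at -0.35 and -0.34, as was Orc1 at -0.33 with MigR1-Cre and -0.30 with MigR1.

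Recql4, a helicase that acts at origins, was lower in MigR1-Cre arrays at -0.59 ± 0.11, and Prim1, a primase subunit, in MigR1 arrays at -0.26 ± 0.06. Among the higher calls, Pold4, the smallest subunit of DNA polymerase delta, was higher at 0.34 with MigR1-Cre and 0.45 with MigR1, and the histone chaperone Asf1b at 0.36 and 0.38. Dna2, a nuclease of lagging strand processing, was higher at 0.44 with MigR1-Cre, and the salvage kinase Dck at 0.48. All of these were past a limma adjusted p of 0.05.

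All 17 genes of E2F control were measured, and none passed in either Cre comparison. Between the lines 6 were higher and 2 lower in the Lef1F/F line in MigR1-Cre arrays, and 5 higher and 2 lower in MigR1 arrays, with medians of 0.19 and 0.08. Of all named genes 8.6% were higher and 7.46% lower with MigR1-Cre, and 8.71% higher and 5.88% lower with MigR1, and 9 and 10 of the 17 genes did not pass. E2f7, a repressor of E2F targets, read 193 and 209 in Lef1F/F MigR1-Cre arrays and 93 and 96 in E2a-/- MigR1-Cre arrays, with a difference of 1.08 ± 0.07 and a limma adjusted p of 3.3e-05. E2f6, also a repressor, read 510 and 511 in Lef1F/F MigR1-Cre arrays and 963 and 876 in E2a-/- MigR1-Cre arrays, with -0.85 ± 0.06 and 0.000107. The 2 repressors went opposite ways, each without overlap. Tfdp2, a dimerisation partner of E2F proteins, read 895 and 1027 in Lef1F/F MigR1-Cre arrays and 585 and 565 in E2a-/- MigR1-Cre arrays, with 0.74 ± 0.12 and 0.00460.

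With MigR1 the same 3 genes had 1.12, -0.87 and 0.81, and all passed. E2f3, an activating E2F, was higher at 0.37 with MigR1-Cre and 0.36 with MigR1, and Rbl1, the pocket protein p107, at 0.27 and 0.42. Fbxw7, which marks cyclin E for degradation, was lower at -0.37 and -0.40. E2f8, a repressor, and Ccna2, cyclin A2, passed in MigR1-Cre arrays only, at 0.40 and 0.41, and the retinoblastoma gene Rb1 in MigR1 arrays only, at 0.58. Of 25 mitosis genes, 24 were measured. None passed after Cre in either line, with medians of 0.07 in the Lef1F/F line and 0.10 in the E2a-/- line. Between the lines 4 were higher and none lower in MigR1-Cre arrays, and 5 higher and none lower in MigR1 arrays, with medians of 0.20 and 0.24, against 8.6% and 8.71% of all named genes higher. The remaining 20 and 19 of the 24 genes did not pass.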

How the data were processed

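RNA of GFP+ sorted cells was hybridised to Affymetrix mouse arrays after Trizol extraction. The authors normalised the scans with RMAExpress (version not given) and deposited linear RMA intensity values per probe set and array, between 35.3 and 25588. RMA makes the arrays' distributions alike, so a change in total RNA per cell is not seen, and it compresses differences at low intensity. The study's dChip comparison was not used.

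Here log2 was taken of the deposited intensity, with no offset, although the design had assumed log2 values. Group means over the 8 arrays were fitted with limma 3.58.1 in R 4.3.3 (lmFit and eBayes, 4 residual and 3.99 prior degrees of freedom), with 5 contrasts: Cre in each line, their difference, and the lines under each vector. The threshold was an adjusted p of 0.05 (Benjamini-Hochberg, all 45037 probe sets). No test was run over a list as a whole. Genes were named from the platform annotation, in which 34945 probe sets had 1 symbol, 932 several and 9160 none. Symbols were updated against GRCm38.p6, and a gene is its brightest probe set by mean log2.

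The members and gene lists were chosen with earlier results of these data known. Values per array are given for members past the threshold and, where none passed, for the 4 with the smallest p; of the other replication genes up to 6 per comparison are named, and of E2F control those that passed. Other genes, such as Mcm5 and Mcm7, were chosen as examples after their values were seen. Simulated data with known changes were used to check the fit. Alternatives were other moderation, filters, scalings, array weights, probe set choices, the replicate block, a threshold of 0.1 and leaving out each array. Chaf1a was not analysed here, nor were proteins. The number of arrays limits precision.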

Additional observations from a re-analysis of the deposited data

How the results depend on the processing

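No member passed in a Cre comparison or in the test of their difference under any alternative run, and the median over the 28 genes in the Lef1F/F line ranged from -0.072 to 0.042 as single arrays were left out. Between the lines the counts depended on the probe set and the error. In MigR1-Cre arrays (3 genes in the main setting) 8 passed with the mean of all probe sets, 5 at a threshold of 0.1, 5 of 23 with the next brightest probe set (4 lower and 1 higher), an alternative added after seeing the data, and 7 when the Lef1F/F pairs formed a replicate block. In MigR1 arrays (1 gene) the counts were 2 after repeated quantile normalisation, 6 with the mean of all probe sets, 2 without probe sets ending in _x_at or _s_at, 4 at 0.1, 4 of 23 with the next brightest probe set and 9 with the block. Leaving out 1 array gave 0 to 3 in MigR1-Cre and 0 to 1 in MigR1 arrays. The median of -0.07 in MigR1-Cre arrays became -0.16 without _x_at and _s_at probe sets and -0.16 with the next brightest, and ranged from -0.14 to 0.010 with 1 array left out. That of -0.10 in MigR1 arrays became -0.19 and -0.18, and ranged from -0.12 to -0.00022. The cause of these shifts was not tested. A share of all named genes is given here only for the block, where 13.4% were lower in MigR1-Cre and 11.4% in MigR1 arrays. The other counts have no such background beside them. Neither they nor the block counts, whose pairing came from these values, are read as a result about the members. Apart from leaving out an array, E2f1 passed in all 11 alternatives under each vector and Pole in all 10 that could be fitted. The threshold of 0.1 is among these alternatives, and a gene already under 0.05 passes it by construction. Pole has only 1 probe set, so the alternatives that change the choice of probe set leave its values as they were. Ccne1 passed in 5 of 11, with limma adjusted p from 0.0140 to 0.101. Same-numbered arrays deviated together in the Lef1F/F line and not in the E2a-/- line, and the labels pair none, so the block is a hint from the data. With the block the Cre comparisons and their difference kept a count of 0. With 2 arrays a group, a gene's interval had a median half-width of 0.18 on the log2 scale, so smaller differences could not be resolved.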
